A study of Mus musculus with 6 samples.

Results

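The HoxC cluster genes Hoxc4, Hoxc5, Hoxc6, Hoxc8, Hoxc9, Hoxc10 and Hoxc11 were followed in single-cell RNA-seq of mouse limb buds at E11.5. They were chosen as named members of the cluster and make up 7 of the 15668 genes counted in every library. Hoxc12 and Hoxc13 also had a row and are given only where a result touches them. Each of 6 groups was represented by 1 library. The hindlimb libraries were C57BL/6 wild type, Dup (homozygous for a duplication at the Lbx1 and Fgf8 locus, on C57BL/6), G4 wild type and Inv1 (homozygous for an inversion at that locus), and the forelimb libraries were G4 wild type and Inv1. G4 is an embryonic stem cell line derived from a cross of 129sv with C57Bl6, and the Inv1 allele was engineered in it, with embryos made by aggregation. The HoxC cluster lies on another chromosome than the rearranged locus. The p-values below rest on 1 library per group, so they do not measure the spread between replicate libraries of a group. The limb fits take nearly all of their estimate of the spread from other genes.

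Hox genes encode homeodomain transcription factors that lie in clusters, where the order of the genes on the chromosome follows the order of their activation and of their anterior limits along the body axis. Genes at the Hoxc4 end are used further towards the head and those at the Hoxc11 end further towards the tail. In the limb, the HoxA and HoxD clusters pattern both pairs of limbs, whereas the HoxC genes are known for their use in the hindlimb, and Hoxc13 and its neighbours are known for roles in skin, hair and nails.

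The members span 82.4 kb of chromosome 15 in the mm9 assembly (chr15:102784858-102867274), all on the plus strand, in the order Hoxc11, Hoxc10, Hoxc9, Hoxc8, Hoxc6, Hoxc5, Hoxc4. Hoxc11 lies at 102784858 to 102788139 and Hoxc4 at 102849367 to 102867274. A noncoding gene on the same strand, Gm20398, shares 166 exonic bases with Hoxc10 and 449 with Hoxc5, and the counts of both genes are uncertain by the UMIs of those bases. The 36 coding bases of the DNA-recognition helix of the homeodomain are given for Hoxc11, Hoxc10, Hoxc9 and Hoxc8 from the annotated transcripts. Capitals mark the 13 positions where these 4 were not all alike.
Hoxc11: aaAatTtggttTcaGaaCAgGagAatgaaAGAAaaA
Hoxc10: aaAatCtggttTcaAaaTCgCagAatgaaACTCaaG
Hoxc9: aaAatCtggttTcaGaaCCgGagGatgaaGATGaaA
Hoxc8: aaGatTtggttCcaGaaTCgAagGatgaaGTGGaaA
Hoxc9 differed from Hoxc11 and from Hoxc8 at 7 of these bases, and Hoxc10 from Hoxc8 at 11.

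A total of 24891 cells passed the limit of 2000 detected genes, with totals from 22660212 to 59418209 UMIs per library and medians of 6729 to 10102 UMIs per cell, and 90.04 to 92.9% of the cells of each library were mesenchyme. Cells were taken in the classes deposited by the authors. Levels are UMIs summed over the cells of a class and scaled to the UMI total of that class (CPM), with 95% Poisson intervals that cover counting error only, and are compared within a gene, since 3′ end counts do not rank genes against each other. Summed muscle, endothelium and mesenchyme markers were at their highest in the class of that name, ectoderm markers were at 1867 to 3529 CPM in dorso-ventral ectoderm against 33.3 to 45.1 CPM in mesenchyme, and the labels of the limbs matched the limb identity genes in mesenchyme. Tbx5, the forelimb factor, stood at 117 (G4) and 81.3 CPM (Inv1) in forelimb and at 0.33 to 1.07 CPM over the 4 hindlimbs. Pitx1, the hindlimb factor, stood at 0.43 and 0.84 CPM in the forelimbs and at 216 to 333 CPM in the hindlimbs. Libraries shared 2 to 13 cell barcodes per pair.

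In mesenchyme, all 7 members were lower in forelimb than in hindlimb. In the G4 forelimb, Hoxc8, Hoxc9, Hoxc10 and Hoxc11 were at 0 UMIs, while Hoxc4, Hoxc5 and Hoxc6 had 13, 6 and 63 UMIs. In the Inv1 forelimb that split was not seen, as Hoxc6 had 25 UMIs, Hoxc4, Hoxc8 and Hoxc9 had 7 to 8, Hoxc5 had 3, Hoxc10 had 1 and Hoxc11 had 0. Summed over the 7 genes, the level was 256, 143, 131 and 89.6 CPM in the C57BL/6, Dup, G4 and Inv1 hindlimbs and 3.50 and 1.43 CPM in the G4 and Inv1 forelimbs. The forelimb to hindlimb ratio of the sum was 0.0267 (95% interval 0.0212 to 0.0332) in G4 wild type and 0.0159 (0.0118 to 0.0210) in Inv1.

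At the posterior end of the cluster, Hoxc11, an Abd-B type factor, gave 37.3, 20.9, 20.5 and 18.6 CPM in the C57BL/6, Dup, G4 and Inv1 hindlimbs and 0 UMIs in both forelimbs, against 1035 and 959 UMIs in the G4 and Inv1 hindlimbs. Hoxc10, a paralogue of Hoxa10 and Hoxd10, gave 125, 73.9, 49.4 and 33.9 CPM in the same hindlimbs, 0 UMIs in 2570 G4 forelimb cells and 1 UMI in 3337 Inv1 forelimb cells. Both genes separated the limbs without overlap. Taking 3 UMIs per library as the floor, forelimb Hoxc10 was at least 385-fold lower than in the hindlimb of G4 wild type, and forelimb Hoxc11 at least 160-fold lower in G4 and at least 222-fold lower in Inv1.

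Hoxc9 gave 44.0, 24.2, 25.2 and 15.2 CPM in the C57BL/6, Dup, G4 and Inv1 hindlimbs, 0 UMIs in G4 forelimb and 0.20 CPM in Inv1 forelimb. Hoxc8, known for its role in the thoracic body axis, gave 20.9, 10.4, 11.3 and 8.41 CPM in the hindlimbs, 0 UMIs in G4 forelimb and 0.22 CPM in Inv1 forelimb. The Inv1 forelimb thus held 7 UMIs of Hoxc9 and 8 of Hoxc8, where the G4 forelimb held none. Those UMIs came from 4 and 5 cells, with up to 3 in 1 cell. The forelimb to hindlimb ratio in Inv1 was 0.0129 (0.00515 to 0.0266) for Hoxc9 and 0.0266 (0.0114 to 0.0529) for Hoxc8, and in G4 at most 0.00508 and 0.0113.

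At the anterior end, Hoxc6, a gene known to mark the cervico-thoracic transition, gave 21.4, 9.06, 19.5 and 10.2 CPM in the C57BL/6, Dup, G4 and Inv1 hindlimbs and 2.69 and 0.70 CPM in the G4 and Inv1 forelimbs. Hoxc4 gave 5.23, 3.30, 3.70 and 2.10 CPM in the hindlimbs and 0.56 and 0.20 CPM in the forelimbs. Hoxc5 gave 2.20, 1.26, 1.66 and 1.15 CPM in the hindlimbs and 0.26 and 0.08 CPM in the forelimbs. The limbs did not overlap for any of these genes. The forelimb to hindlimb ratios of Hoxc4, Hoxc5 and Hoxc6 were 0.150 (0.0784 to 0.263), 0.154 (0.0550 to 0.350) and 0.138 (0.105 to 0.178) in G4, and 0.0933 (0.0366 to 0.199), 0.0732 (0.0147 to 0.225) and 0.0688 (0.0441 to 0.103) in Inv1. In G4 the lower ends of these intervals lay above the highest bound of the posterior members, 0.0113 for Hoxc8. In Inv1 they did not, as the interval of Hoxc8, up to 0.0529, overlapped those of all 3 genes.

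**Figure D1:**
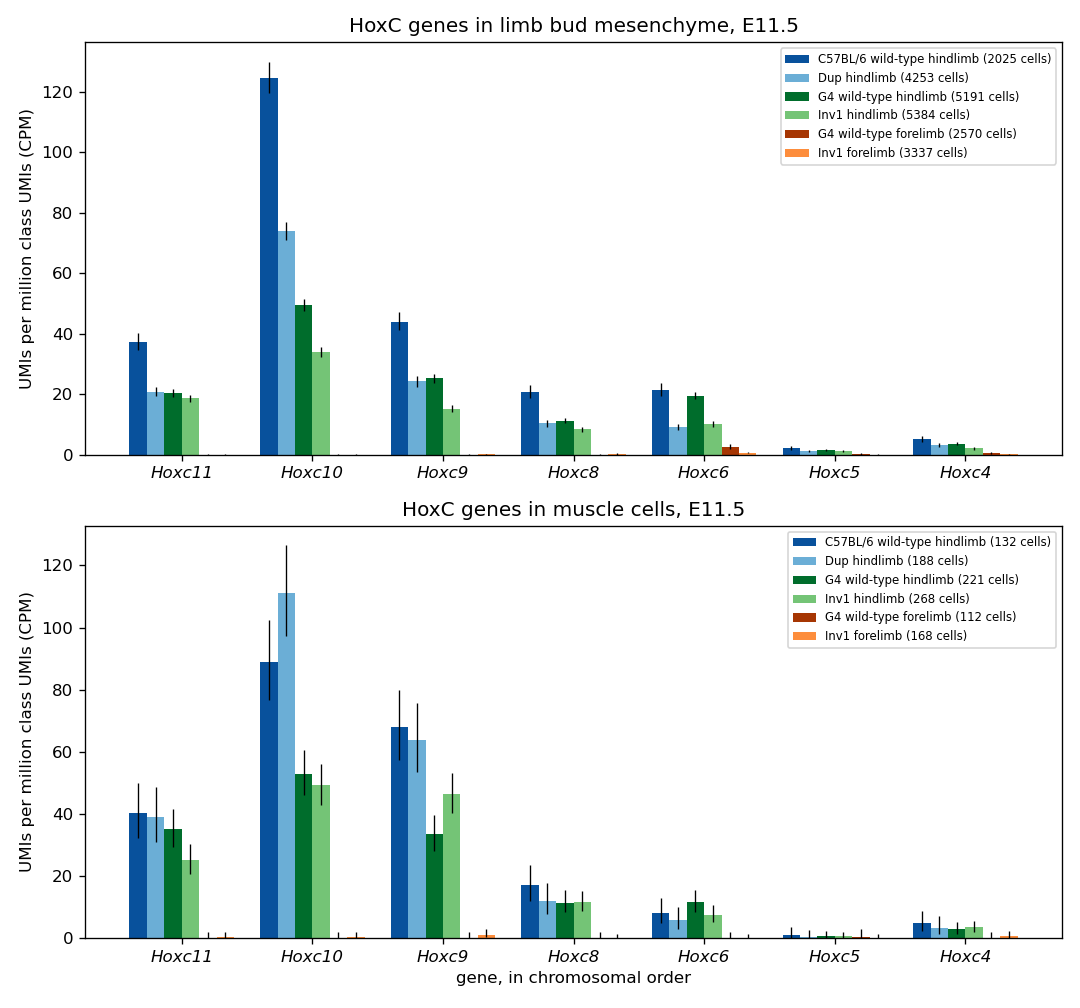
CPM of each HoxC gene in mesenchyme (top) and muscle cells (bottom), in chromosomal order on the x axis, with 1 bar per library and lines for the 95% Poisson interval. In mesenchyme the highest forelimb bar is at 2.69 CPM, for Hoxc6 in G4, and in muscle no forelimb library holds more than 3 UMIs of a gene.

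The limb difference was tested over the 4 G4 and Inv1 libraries with genotype as a covariate, in edgeR's quasi-likelihood test. All 7 members were lower in forelimb at an adjusted p under 0.05, against 2.1% of the 15006 genes tested (6.42% were higher, 8.52% in any direction). The adjusted p was 8.4e-57 for Hoxc6, with a log2 difference of -3.51 ± 0.21 (SE). The log2 difference was -3.25 ± 0.32 for Hoxc4 and -3.35 ± 0.47 for Hoxc5. Each of these 3 genes was lower in 2 of 2 forelimb libraries. DESeq2, run with its default independent filtering, gave none of the 7 an adjusted p, and without that filtering it called 6. Of the 7 members, only Hoxc6 could pass the filter on low counts through the forelimbs. The others passed only with the hindlimbs, so their calls add nothing to their UMI values. The fit has 1 residual degree of freedom and takes nearly all of its estimate of the spread from other genes. With all 6 libraries and without the G4 forelimb, Hoxc4, Hoxc5 and Hoxc6 were no longer called (adjusted p 0.074 to 0.083), which left 4 members. Also, 7 of 7 members were lower in both forelimb libraries than in all 4 hindlimb libraries, as were 7.92% of 15637 genes.

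Fewer forelimb cells met the gate used for proximal cells, which rests on genes that were themselves lower in forelimb. Mesenchyme cells with a UMI of Meis1 or Meis2, the cofactors that mark the proximal limb, and with none of Hoxa13 or Hoxd13 were 20.2% of the G4 and 9.55% of the Inv1 hindlimb mesenchyme and 4.44% and 2.04% of the forelimb mesenchyme. The reverse combination, which marks distal cells, made up 42.7 and 59.8% in the hindlimbs and 62.1 and 71.5% in the forelimbs. Within proximal cells, the forelimb to hindlimb ratio of the sum was 0.103 (0.0672 to 0.151) in G4 and 0.113 (0.0718 to 0.168) in Inv1, and within distal cells 0.0242 (0.0147 to 0.0375) and 0.00595 (0.00218 to 0.0130). Proximal forelimb cells held 0 UMIs of Hoxc10 and Hoxc11 in both genotypes, against 1017 and 352 UMIs in G4 and 549 and 186 in Inv1 proximal hindlimb cells. The interval of Hoxc4 in proximal cells included 1, at 0.850 (0.303 to 1.94) in G4 and 0.656 (0.171 to 1.81) in Inv1. Hoxc6 in proximal cells stood at 0.443 (0.268 to 0.692) and 0.366 (0.180 to 0.669). The ratio of the sum was thus closer to 1 in cells of the proximal gate than in all mesenchyme, and in G4 all 26 proximal forelimb UMIs were of Hoxc4 and Hoxc6. For Hoxc8 to Hoxc11 the proximal G4 ratios are only bounds (at most 0.136, 0.0629, 0.0318 and 0.0918). Whether fewer proximal cells or less Meis RNA per cell gave the gate shares was not tested.

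Along the proximal to distal axis of the hindlimb, every member was lower in distal than in proximal mesenchyme in all 4 hindlimb libraries. How many of all genes were lower in distal cells was not counted. The distal to proximal ratio of the sum was 0.320 (0.293 to 0.350) in C57BL/6, 0.131 (0.120 to 0.142) in Dup, 0.181 (0.169 to 0.193) in G4 and 0.123 (0.113 to 0.132) in Inv1. Hoxc10 had ratios of 0.288, 0.114, 0.170 and 0.117 in the same order. Hoxc11 had ratios of 0.381, 0.157, 0.208 and 0.199, and Hoxc8 had 0.302, 0.0776, 0.137 and 0.0814. The upper ends of the intervals of all members lay below 1. For Hoxc12, the next gene beyond Hoxc11, the ratio was at least 2.45 in G4 (19 distal against 0 proximal UMIs), while the intervals in C57BL/6 (4.61, 0.878 to 45.5) and Inv1 (2.18, 0.553 to 18.8) included 1 and Dup, with 11 UMIs against 0, gave no ratio.

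**Figure D2:**
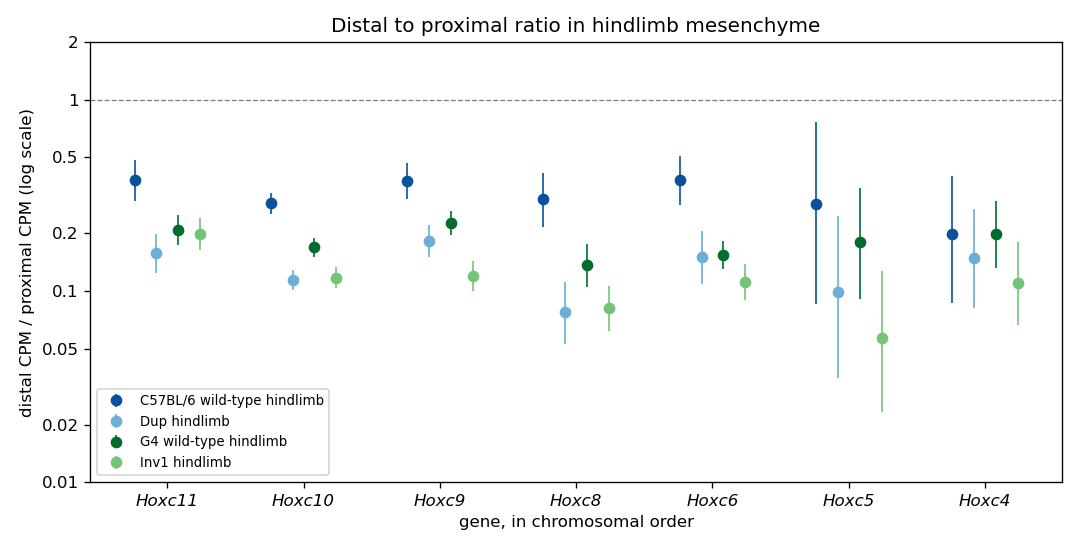
Ratio of CPM in distal to proximal mesenchyme cells on a log y axis for each HoxC gene, in chromosomal order, in the 4 hindlimb libraries, with lines for the 95% interval of counting error. All points lie below 1, and the C57BL/6 points (0.198 to 0.381) are the highest of the 4 libraries for every gene except Hoxc4.

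Other Hox genes of mesenchyme gave different counts in the same fit. None of the 10 HoxA genes tested differed between the limbs at an adjusted p under 0.05 in edgeR. Of 5 HoxB genes tested, 3 were lower in forelimb and 1, Hoxb2, was higher (log2 difference 1.16 ± 0.20). The 3 lower genes were Hoxb7 (-5.04 ± 0.71), Hoxb9 (-3.19 ± 0.32) and Hoxb4 (-2.97 ± 0.86). Of 6 HoxD genes, 3 were higher in forelimb, namely Hoxd13 (1.07 ± 0.25), Hoxd8 (0.90 ± 0.18) and Hoxd10 (0.75 ± 0.20). The median log2 difference was 0.00 over the HoxA genes, -2.97 over the HoxB genes, 0.67 over the HoxD genes and 0.03 over all genes tested. Of 9 Hox cofactors, Meis2 (-3.09 ± 0.21) and Meis1 (-2.36 ± 0.20) were lower in forelimb. The limb identity genes Pitx1 and Tbx4, the latter at -3.03 ± 0.21, were lower and Tbx5, at 7.76 ± 0.29, was higher.

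The genes whose profiles over the 6 libraries in mesenchyme lay closest to a member, out of 8225 genes, were mostly cluster neighbours and hindlimb genes. Likeness was the root mean square difference of centred log2(CPM + 1) profiles. For Hoxc9 the closest were Hoxc11 (0.20), Hoxc10 (0.69) and Meis2 (0.73). For Hoxc10 they were Hoxc9 (0.69), Hoxc11 (0.72) and Pitx1 (0.76). For Hoxc6 they were Tbx4 (0.42), Isl1 (0.51), which acts at the start of hindlimb outgrowth, and Igf1 (0.52).

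In muscle cells, which enter the limb from the somites, the members other than Hoxc5 again separated the limbs. The 7 genes gave 480, 488, 571 and 632 UMIs in the C57BL/6, Dup, G4 and Inv1 hindlimbs (228, 236, 148 and 144 CPM), and 1 and 7 UMIs in the G4 and Inv1 forelimbs (0.50 and 2.33 CPM). The forelimb to hindlimb ratio of the sum was 0.00334 (8.45e-05 to 0.0187) in G4 and 0.0162 (0.00649 to 0.0336) in Inv1. In the hindlimbs the sum in muscle was 89.2 to 165% of that in mesenchyme of the same library, while the median mesenchyme marker in muscle stood at 6.27 to 12.8% of its mesenchyme level in those libraries.

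Hoxc10 in muscle gave 88.9, 111, 52.9 and 49.2 CPM in the C57BL/6, Dup, G4 and Inv1 hindlimbs, 0 UMIs in the G4 forelimb and 1 UMI in the Inv1 forelimb. Hoxc9 gave 68.0, 63.8, 33.5 and 46.4 CPM in the hindlimbs, with 0 and 3 UMIs in the forelimbs. Hoxc11 gave 85, 81, 135 and 110 UMIs in the hindlimbs, with 0 and 1 UMI in the forelimbs. Hoxc8 and Hoxc6 were at 11.4 to 17.1 and 5.80 to 11.7 CPM in the hindlimbs and at 0 UMIs in both forelimbs. Forelimb Hoxc6 in muscle was at least 7.85-fold lower than in the G4 hindlimb and at least 7.51-fold lower than in the Inv1 hindlimb.

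Of the 7 members, 5 passed the filter in muscle, and those 5 (Hoxc6 and Hoxc8 to Hoxc11) were lower in forelimb in edgeR, against 0.596% of 10570 genes (2.42% were higher, 3.02% in any direction). All 5 passed only through the hindlimbs, so their calls add nothing to their UMI values. Genes of other Hox clusters were also lower in forelimb in the same edgeR fit of muscle. These were 3 of 6 HoxD genes tested (Hoxd9, Hoxd11 and Hoxd10) and 2 of 3 HoxB genes (Hoxb7 and Hoxb9, at 0 UMIs in both forelimbs). None of 9 HoxA genes tested was called. Hoxc4 had 2 UMIs in the Inv1 forelimb against 15 in the hindlimb (ratio 0.195, 0.0217 to 0.839), and Hoxc5, with 0 to 3 UMIs per library, could not be placed. Hoxc5 was also the member whose limbs overlapped in muscle, so that 6 of 7 did not overlap, against 7.9% of 15020 genes. The limb difference in muscle was compared with that in mesenchyme in edgeR in a fit of class by limb that was added after the data were seen. At an adjusted p under 0.05 it called 0 of 7 members, 2 of them (Hoxc6 and Hoxc11) at an unadjusted p under 0.05. It called 0.509% of 13742 genes. Hoxc6 had an unadjusted p of 0.0068 there and an adjusted p of 0.29, with 0 forelimb UMIs in muscle.

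In dorso-ventral ectoderm, the surface layer of the limb bud outside the ridge, HoxC genes were expressed in both limbs. The 7 genes gave 293 and 175 CPM in the G4 and Inv1 hindlimbs and 211 and 148 CPM in the G4 and Inv1 forelimbs, with 219 CPM in the Dup hindlimb and 351 CPM in the 11 cells of the C57BL/6 hindlimb. The forelimb to hindlimb ratio of the sum was 0.719 (0.527 to 0.968) in G4 and 0.843 (0.642 to 1.10) in Inv1. A UMI of at least 1 of the 7 genes was found in 23 of 24 G4 forelimb ectoderm cells (95.8%, exact 95% interval 78.9 to 99.9%) and in 34 of 45 Inv1 cells (75.6%, 60.5 to 87.1%). In forelimb mesenchyme the same was found in 2.26 and 0.749% of the cells, at median depths of 8223 and 9807 UMIs, against 8800 and 12174 in the ectoderm cells. After thinning each cell to 4000 UMIs the shares were 58.3 and 46.7% in forelimb ectoderm and 1.42 and 0.570% in forelimb mesenchyme.

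Hoxc6 was the most even member between the limbs in ectoderm, with 85.1 and 54.1 CPM in the G4 and Inv1 hindlimbs and 86.5 and 58.0 CPM in the forelimbs. Its forelimb to hindlimb ratio was 1.02 (0.603 to 1.66) in G4 and 1.07 (0.674 to 1.68) in Inv1. Hoxc8 gave 29.7 and 11.8 CPM in the hindlimbs and 22.6 and 14.1 CPM in the forelimbs. Both intervals of each gene included 1, and for Hoxc8 they reached from 0.253 to 1.92 in G4 and from 0.422 to 3.17 in Inv1.

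Hoxc10 in ectoderm gave 65.7 and 34.4 CPM in the G4 and Inv1 hindlimbs and 56.4 and 17.6 CPM in the forelimbs, where the mesenchyme of the same forelimb libraries held 0 and 1 UMI. Hoxc9 gave 70.9 and 43.3 CPM in the hindlimbs and 33.8 and 19.3 CPM in the forelimbs, ratios of 0.477 (0.207 to 0.973) and 0.446 (0.208 to 0.878). Hoxc11 gave 27.1 and 22.6 CPM in the hindlimbs, 22.8 CPM in the Inv1 forelimb and 0 UMIs in the 24 cells of the G4 forelimb. In G4 Hoxc11 was thus at least 2.40-fold lower in forelimb, while in Inv1 its ratio was 1.01 (0.470 to 2.08). Hoxc4 and Hoxc5 had 1 to 8 UMIs in each of these 4 libraries.

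Hoxc12 and Hoxc13, outside the 7 members, were found in the ectoderm of both limbs as well, at 46.4 and 68.9 CPM (Hoxc12) and 74.8 and 62.0 CPM (Hoxc13) in the G4 and Inv1 hindlimbs. In the forelimbs they stood at 67.7 and 50.9 CPM and at 120.3 and 82.6 CPM. In mesenchyme of all 6 libraries both were at 0.76 CPM or less.

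**Figure D3:**
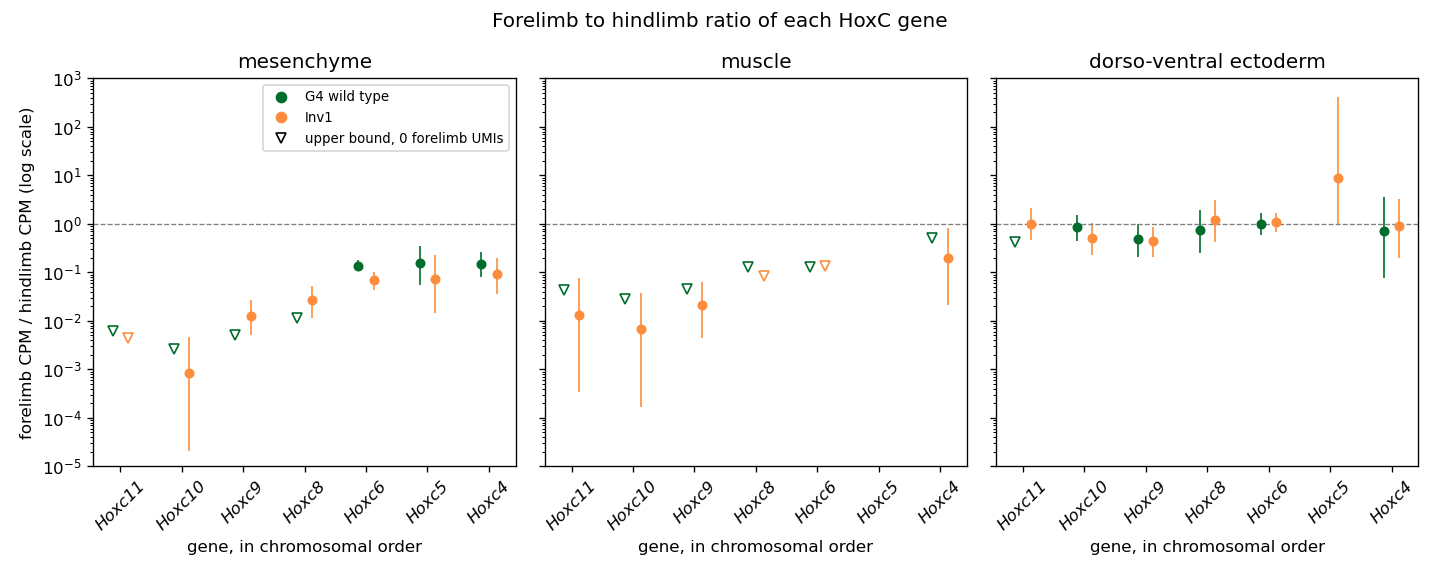
Forelimb to hindlimb ratio of CPM on a log y axis for each HoxC gene, in chromosomal order, in mesenchyme, muscle and dorso-ventral ectoderm, for the G4 wild-type and Inv1 pairs, with lines for the 95% interval of counting error and open triangles for upper bounds where the forelimb held 0 UMIs. The points lie below 0.2 in mesenchyme. In ectoderm those of Hoxc6 lie around 1, those of Hoxc9 lie below 1 with their intervals, and the other genes spread to both sides of 1. Genes with too few UMIs for a ratio are left out.

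Of 7 members, 5 passed the filter in ectoderm, and edgeR called 0 of them between the limbs, with 1 (Hoxc9, log2 difference -1.22 ± 0.38, adjusted p = 0.16) at an unadjusted p under 0.05. DESeq2 called 0 and had 0 at an unadjusted p under 0.05. In the same fit 0.258% of 6967 genes were called, 0.115% lower and 0.144% higher in forelimb. The edgeR fit of class by limb called 5 of 7 members (Hoxc6 and Hoxc8 to Hoxc11) at an adjusted p under 0.05, against 0.379% of 13738 genes. Their forelimb minus hindlimb difference in ectoderm exceeded that in mesenchyme. For Hoxc8 to Hoxc11 a forelimb mesenchyme library held 0 UMIs, so their calls add little to the UMI values of the classes. For Hoxc6 the log2 limb difference was 3.42 ± 0.39 less negative in ectoderm (adjusted p 6.2e-15). Within each genotype the limb ratio of the sum was 27.0 times (18.8 to 38.8) higher in ectoderm than in mesenchyme in G4 and 52.6 times (36.1 to 76.7) in Inv1. Without the Inv1 forelimb, Hoxc11 was no longer called and 4 members were left.

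The ectoderm counts are from 24 to 95 cells per G4 or Inv1 library. The 12 mesenchyme markers summed to 110 to 594 CPM in the ectoderm class against 1723 to 2534 CPM in mesenchyme, and the median marker stood at 4.05 to 10.6% of its mesenchyme level in the 5 libraries with 20 or more ectoderm cells. Their part in the hindlimb ectoderm values was not tested. In the forelimbs, the summed HoxC level of ectoderm was 6008% and 10351% of that in mesenchyme. In the hindlimbs it was 153 to 223% in Dup, G4 and Inv1. Of the HoxA genes, 2 of 3 tested in ectoderm were lower in forelimb, which were named after their values were seen. Hoxa9 stood at 266 and 234 CPM in the G4 and Inv1 hindlimbs and at 11.3 and 8.78 CPM in the forelimbs, and Hoxa7 at 78.6 and 49.2 CPM and at 0 and 1.76 CPM. Hoxa9 in mesenchyme stood at 137 and 158 CPM in the hindlimbs and at 180.0 and 157 CPM in the forelimbs.

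In the apical ectodermal ridge (AER), the signalling epithelium at the limb tip, 6 of the 7 members were found in both limbs, and Hoxc11 had 0 UMIs in the forelimb ridge of G4 and of Inv1. The authors named the class with Fgf8, which lies at the rearranged locus, and En1. In Inv1, on which the limb ratios below rest, Fgf8 stood at 37.6 CPM in the hindlimb and 10.3 CPM in the forelimb ridge, against 2574 to 7315 CPM in the other 4 libraries, and En1 stood at 99.3 and 214 CPM, against 81.4 to 248 CPM. The part of this in the ratios was not tested. The Inv1 forelimb ridge (39 cells) gave 281 CPM over the 7 genes and the Inv1 hindlimb ridge (82 cells) 191 CPM, a ratio of 1.47 (1.13 to 1.92). Hoxc8 gave 87.8 CPM (34 UMIs) in the Inv1 forelimb ridge against 12.0 CPM (8 UMIs) in the hindlimb, a ratio of 7.29 (3.31 to 18.2). Hoxc10 gave 5.16 CPM (2 UMIs) against 36.1 CPM (24 UMIs), a ratio of 0.143 (0.0164 to 0.576). Hoxc8 thus stood higher and Hoxc10 lower in the forelimb ridge than in the hindlimb ridge of Inv1. Hoxc8 in the Inv1 hindlimb ridge stood at 143% (61.4 to 285) of its mesenchyme level. It stood at 361% (179 to 651) in the 33 cells of the G4 hindlimb ridge and 371% (135 to 816) in the 25 cells of Dup. The ratio of 7.29 thus rests on an Inv1 hindlimb ridge that was lower by this measure, with overlapping intervals.

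Hoxc6 and Hoxc9 had ratios of 1.30 (0.787 to 2.12) and 1.12 (0.682 to 1.81) in the Inv1 ridge. Hoxc4 had 8 UMIs in the forelimb and 2 in the hindlimb (6.86, 1.37 to 66.3). The G4 forelimb ridge held 10 cells, under the limit of 20 set for a ratio, and its 21 UMIs comprised 10 of Hoxc8, 7 of Hoxc6 and 1 of each other member except Hoxc11, which had 0. The G4 hindlimb ridge held 20 UMIs of Hoxc9, 17 of Hoxc6, 11 of Hoxc8 and 9 of Hoxc10. Hoxc12 had 0 UMIs in the ridge of all 6 libraries. The mesenchyme markers summed to 557 to 1652 CPM in the ridge class, and their part in these values was not tested. No test over samples was made for the ridge, with under 20 cells in the G4 forelimb.

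**Figure D4:**
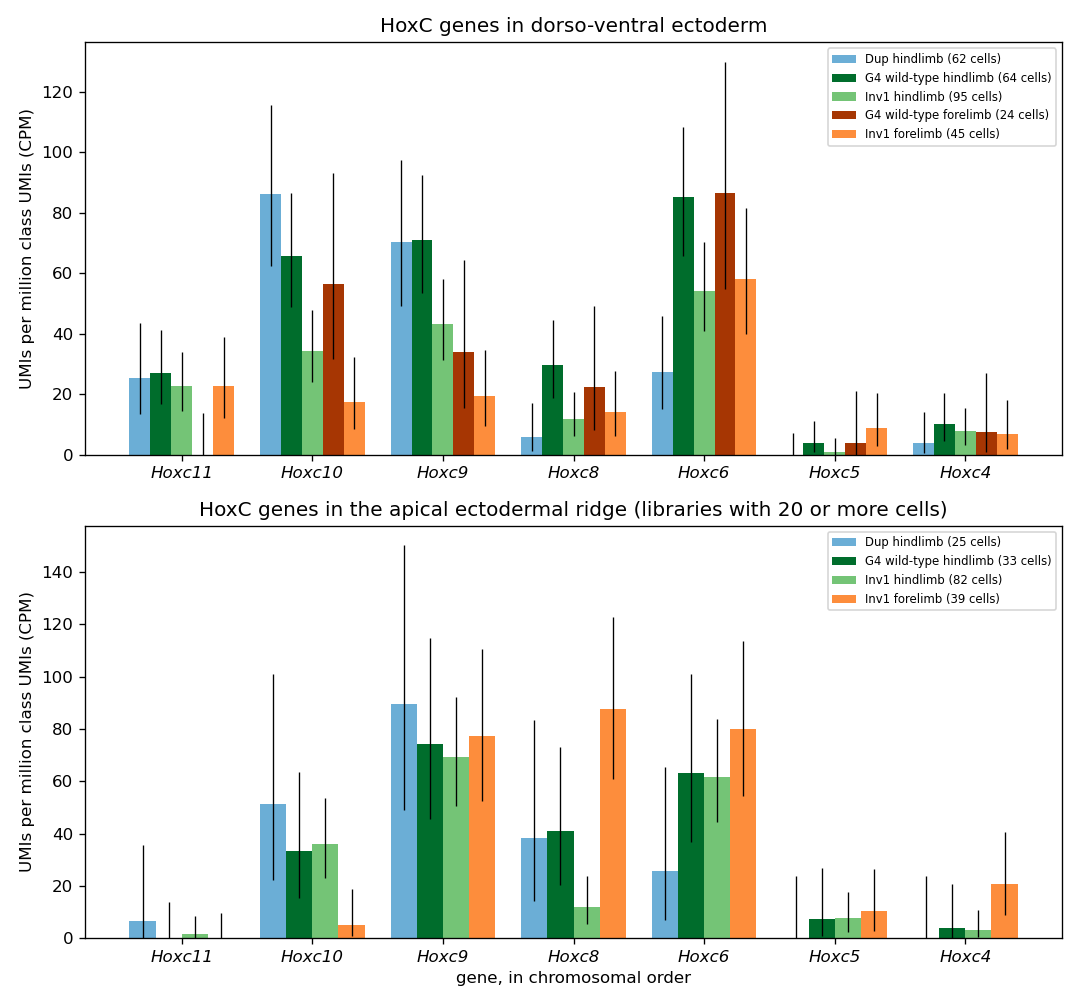
CPM of each HoxC gene in dorso-ventral ectoderm (top) and in the apical ectodermal ridge (bottom), in chromosomal order on the x axis, with 1 bar per library with 20 or more cells and lines for the 95% Poisson interval. Forelimb bars stand beside hindlimb bars of like height for Hoxc6, while in the ridge the Inv1 forelimb bar is at 87.8 CPM for Hoxc8 and 5.16 CPM for Hoxc10.

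In endothelium, the lining of the blood vessels, UMIs of the members were few. The forelimbs held 0 UMIs of any member in 16 G4 and 30 Inv1 cells. The G4 and Inv1 hindlimbs held 4 and 3 UMIs, found in 3 of 45 and 2 of 35 cells, and the C57BL/6 and Dup hindlimbs 6 and 17 UMIs, found in 2 of 25 and 10 of 34 cells. The summed level was 3.24, 5.42, 6.42 and 33.2% of that in mesenchyme of the G4, Inv1, C57BL/6 and Dup hindlimbs, where the median mesenchyme marker stood at 0.975, 7.91, 7.79 and 20.6% of its mesenchyme level. In Dup endothelium Hoxc10 had 7 and Hoxc11 had 5 of the 17 UMIs. With 16 cells in the G4 forelimb, under the limit of 20, no fit was made, and a limb difference was not detectable at this depth.

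Between genotypes, the members were lower in hindlimb mesenchyme of both mutants than in their controls. The share of all genes that were lower was not counted, so this is not shown to be particular to the members. In Inv1 against G4 hindlimb, the sum had a ratio of 0.682 (0.657 to 0.708), with the members from 0.520 (Hoxc6) to 0.909 (Hoxc11, 0.832 to 0.994). In Dup against C57BL/6 hindlimb, the sum had a ratio of 0.559 (0.537 to 0.582), with the members from 0.423 (Hoxc6) to 0.631 (Hoxc4). The wild-type hindlimbs of G4 and C57BL/6, which differ in strain and were deposited in separate matrices, had a ratio of 0.514 (0.495 to 0.533), a larger difference than in either mutant.

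The lower level went with another mix of cells. Distal cells were 24.2% of the mesenchyme in C57BL/6 and 49.0% in Dup, and 42.7% in G4 and 59.8% in Inv1. Proximal cells were 38.2 and 14.7%, and 20.2 and 9.55%. Within proximal cells, the sum had a ratio of 1.05 (0.982 to 1.12) in Inv1 and 1.04 (0.979 to 1.11) in Dup. Within distal cells, it had a ratio of 0.711 (0.656 to 0.769) in Inv1 and 0.425 (0.383 to 0.473) in Dup. Of single members, Hoxc8 was higher in proximal Inv1 cells (1.33, 1.08 to 1.63) and Hoxc6 lower (0.825, 0.696 to 0.974), and Hoxc11 stood at 1.01 (0.830 to 1.22) in distal Inv1 cells. The part of the cell mix in the lower level was not tested beyond these values, and genotype and library cannot be told apart with 1 library per group.

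**Figure D5:**
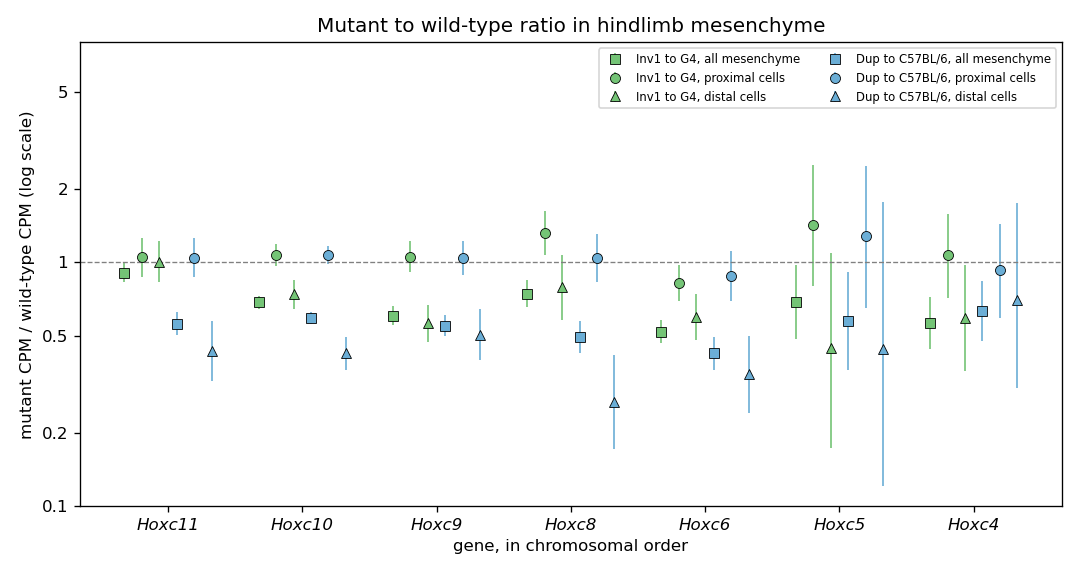
Ratio of mutant to wild-type CPM on a log y axis for each HoxC gene in hindlimb mesenchyme, over all mesenchyme (squares), proximal cells (circles) and distal cells (triangles), for Inv1 to G4 and Dup to C57BL/6, with lines for the 95% interval of counting error. The circles lie around 1 (0.825 to 1.43), and the squares lie below 1 for every gene (0.423 to 0.909).

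Within the finer classes of the C57BL/6 pair, the Dup to wild-type ratio of the sum fell from stylopod to autopod mesenchyme. It was 0.910 (0.854 to 0.970) in stylopod mesenchyme (the upper leg) and 0.615 (0.570 to 0.662) in zeugopod mesenchyme (the lower leg). In autopod mesenchyme (the foot) it was 0.360 (0.308 to 0.421). In muscle connective tissue, a class not named by position, it was 1.15 (1.01 to 1.31). The autopod values rest on 378 UMIs in 1468 Dup cells and 293 UMIs in 326 wild-type cells. Hoxc10 fell in the same order from stylopod to autopod, at 0.952 (0.872 to 1.04), 0.677 (0.606 to 0.755) and 0.323 (0.256 to 0.409). Hoxc11 did so too, at 0.896 (0.732 to 1.09), 0.595 (0.509 to 0.695) and 0.448 (0.302 to 0.672). In muscle connective tissue Hoxc10 stood at 1.34 (1.12 to 1.61). Hoxc11 stood at 0.710 (0.486 to 1.04) there, an interval that overlapped its stylopod one.

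In the genotype term of the edgeR fit over both limbs, 2 of 7 members were lower in Inv1 mesenchyme at an adjusted p under 0.05, against 1.59% of genes in either direction. These were Hoxc6 (-1.21 ± 0.20 on the log2 scale, adjusted p = 9.3e-07), lower in 2 of 2 limbs, and Hoxc4 (-0.95 ± 0.28, adjusted p = 0.044), also lower in 2 of 2. Hoxc4 was not called over all deposited cells or over cells with more than 3000 detected genes. DESeq2 called neither gene. The Inv1 to G4 ratio of Hoxc6 was 0.520 (0.467 to 0.579) in hindlimb and 0.260 (0.156 to 0.419) in forelimb mesenchyme. In muscle, the sum had a ratio of 0.971 (0.865 to 1.09) in Inv1 and 1.03 (0.910 to 1.18) in Dup hindlimbs.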

How the data were processed

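Limb buds at E11.5 were profiled by droplet 3′ end single-cell RNA-seq, 1 library per group. The authors ran Cell Ranger 3 on a custom mm9 reference and deposited raw UMI counts as matrices (mm10 is named as well in the submitters' processing notes). They filtered cells on detected genes, mitochondrial UMIs and Scrublet scores, integrated libraries with Seurat and named classes from clusters and marker genes. The annotation behind these counts was not given in the sources used here. The classes were used as deposited, over cells with more than 2000 detected genes. A hindlimb-only annotation by the authors served as an alternative, and 17 other columns of the cell annotation were not used. Doublet removal was left to the authors' filter.

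UMIs were summed per class and library, and CPM totals run over the 15668 genes in both matrices. Ratios carry exact conditional binomial 95% intervals, levels Poisson intervals and shares Clopper-Pearson intervals, all for counting error only, and a floor of 3 UMIs per library stands for 0. Limb differences were tested in edgeR 4.0.16 (glmQLFit, glmQLFTest, TMM, filterByExpr) over the G4 and Inv1 libraries with genotype and limb as terms, where each library had 20 or more cells of a class, with Benjamini-Hochberg adjustment over all genes and a threshold of 0.05. The fits have 1 residual degree of freedom. The SE given with a log2 difference is its absolute value divided by the square root of the F statistic. DESeq2 1.42.0, RLE scaling, no filter, other cell limits and a 6-library fit with strain and limb were alternatives. The class by limb fit, with library, class and limb within class as terms (2 residual degrees of freedom), was added after the data were seen. The edgeR scripts were tested on simulated data. All members are named, with up to 5 genes of each list by largest limb difference in mesenchyme and Tbx5, Tbx4 and Pitx1 always. The 3 genes most like each member with a mean of 10 CPM or more were taken by profile. The members and lists were chosen with earlier results of these data known. Coordinates and coding bases are from GENCODE M1 on NCBIM37, the assembly behind mm9. The helix sequences of the other members are not reported here.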

Additional observations from a re-analysis of the deposited data

Results flagged for a closer look

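The limb difference of 5 members was not the same in dorso-ventral ectoderm as in mesenchyme, by the class by limb fit in edgeR. On the log2 scale, the forelimb minus hindlimb difference in ectoderm exceeded that in mesenchyme by 10.75 ± 1.20 (SE) for Hoxc11, 10.24 ± 0.77 for Hoxc10, 6.16 ± 0.69 for Hoxc9, 5.97 ± 0.87 for Hoxc8 and 3.42 ± 0.39 for Hoxc6. For Hoxc8 to Hoxc11 these fitted values depend on the prior count, since a forelimb mesenchyme library held 0 UMIs. Each SE was derived from the fitted difference and its F statistic, so for these genes it does not measure precision.

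Over all mesenchyme, Inv1 stood below G4 in hindlimb and above it in forelimb for Hoxc8 and Hoxc9. The Inv1 to G4 ratio of Hoxc8 was 0.743 in hindlimb and at least 1.74 in forelimb (8 UMIs against 0), and that of Hoxc9 was 0.603 in hindlimb and at least 1.53 in forelimb (7 UMIs against 0). This difference was not tested, and the forelimb UMIs came from 5 and 4 cells. In proximal cells the directions were not opposite, with Hoxc8 at 1.33 (1.08 to 1.63) in hindlimb and at least 1.65 in forelimb, and Hoxc9 at 1.06 (0.910 to 1.23) and at least 1.65, from 4 forelimb UMIs each.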

How the results depend on the processing

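Libraries could not be paired by replicate number because each group holds 1 library and all libraries carry the same number, so that the groups compared share fewer than 2 numbers. In the limb fits, the limbs were compared within genotype only through the genotype term. The forelimb to hindlimb ratios were taken within each genotype, without a test. DESeq2 gave no adjusted p to any of the 7 members in mesenchyme (unadjusted p up to 0.0031), and without its independent filtering, an alternative chosen after the data were seen, it called 6 of them. In mesenchyme the 6-library fit called 7 members, and leaving out 1 library at a time called 4 to 7, the 4 without the G4 forelimb and 6 without the G4 hindlimb. The count of all genes that differed between the limbs in mesenchyme moved from 1279 to 252 in DESeq2, 280 in DESeq2 without independent filtering and 225 in the 6-library fit, and in that fit with 1 library left out to 190 (without C57BL/6), 235 (Dup), 53 (G4 forelimb), 50 (G4 hindlimb), 163 (Inv1 hindlimb) and 3908 (Inv1 forelimb). The count of members lower in Inv1 moved from 2 to 0 in DESeq2, with or without independent filtering, and to 1 over all deposited cells and over cells with more than 3000 detected genes. In muscle 5 to 6 members were called when 1 library was left out. The 6-library fit could not be made in ectoderm, with 11 cells in the C57BL/6 library, nor the limit of 3000 genes, and no fit could be made in endothelium. In the class by limb fit for ectoderm, 4 to 5 members were called when 1 library was left out, and without the Inv1 forelimb the difference of Hoxc11 turned from 10.75 to -0.47 on the log2 scale (adjusted p = 1 in edgeR), where G4 forelimb Hoxc11 was at 0 UMIs in both classes, and without the G4 forelimb it was 11.70. Of the forelimb to hindlimb ratios of the members, 29 lay below 1 with their interval or bound, and 24 to 29 did so under the other cell choices. Thinning to 4000 UMIs moved 3 ratios in Inv1 muscle, all at 1 to 3 forelimb UMIs before thinning. The cause of these changes was not tested. Depth limits ectoderm, ridge and endothelium most, where 10 to 95 cells stand behind a value.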
